A study of Homo sapiens with 6 samples.

Results

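TGF-beta ligands, activins and the proteins that hold or neutralize them were examined in MDA-MB-231 cells, a human cell line established from a triple negative breast cancer (TNBC). The 10 genes were chosen from the count tables by symbol and grouped by role: the ligand genes TGFB1 and TGFB2, the 4 genes of the latent TGF-beta binding proteins (LTBP1 to LTBP4), the activin subunit genes INHBA and INHBB, and the activin antagonist genes FST and FSTL3. All 10 were found among the 23228 symbols listed. They were selected on the fold changes between PELP1-KD and control cells that an earlier look at the same samples had shown, so those differences are given below as a description, without a p-value, and the counts of genes past a threshold support nothing further. RNA-seq was done on 3 replicates of control cells, which stably carry a lentiviral shRNA without a target, and 3 replicates of PELP1-KD cells, which stably carry a single shRNA against PELP1. Both kinds of cells had been obtained by puromycin selection and grew in RPMI medium with fetal bovine serum. PELP1 is a scaffold protein that takes part in transcriptional control by nuclear receptors and other factors, and the comparison asks which transcripts change when less of it is made. The labels do not say that replicates came from separate cultures, so the spread between them may be technical, and a single shRNA in a single cell line limits the PELP1-KD group as a model. The values come from bulk RNA, in which fewer cells making a transcript and less of it per cell cannot be told apart.

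TGF-beta is secreted as a latent complex. Its precursor is cut by furin-type convertases, and the propeptide stays wrapped around the mature growth factor and keeps it inactive. LTBP1, LTBP3 and, less firmly, LTBP4 are bound covalently to this propeptide and tether the complex to fibrillin and fibronectin fibers, from which integrins and proteases release the ligand. LTBP2 belongs to the same family but does not bind latent TGF-beta. Activins, in contrast, are secreted without a latent shell: they are dimers of INHB subunits, and activin A is made of subunits from INHBA. Follistatin, the product of FST, and its relative from FSTL3 wrap around activin and block its receptors. In breast cancer cells, this family of ligands is known for its effects on motility, matrix production and epithelial to mesenchymal transition.

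Gene counts summed to between 17304864 and 23132102 in each replicate, and 3 counts, taken as the floor of detection, equal 0.13 to 0.173 CPM, a count scaled by the TMM-adjusted size of its library. PELP1 had 968, 1274 and 1069 reads in the controls and 557, 637 and 712 reads after knockdown, so the targeted gene was 48.9% lower. The markers VIM, CD44 and AXL, known for the mesenchymal character of this line, averaged 828 CPM or more in both groups. All 3 were lower in PELP1-KD cells without overlap of the groups, with a log2FC of -0.55 for CD44, -0.21 for VIM and -0.13 for AXL (edgeR quasi-likelihood test, adjusted p-value 8.61e-13, 7.18e-06 and 1.87e-04), and the part of this in the results below was not tested. ESR1, PGR and CDH1 averaged below 0.1 CPM and the leukocyte marker PTPRC was at 0 in all 6 samples. The endothelial marker PECAM1 averaged 0.221 CPM in the controls and 0.199 CPM in PELP1-KD cells. Replicate 1 of the controls stood somewhat apart from the others of its group, at a chi-square of 3.87 and 4.11 per degree of freedom when set against them, where controls 2 and 3 differed by 1.47. Replicate 2 of PELP1-KD cells did so as well, at 2.75 and 2.71 against 1.51.

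Of the 10 genes, 9 had enough counts to be tested. By edgeR's quasi-likelihood test at an adjusted p-value below 0.05, 6 were higher and 1 was lower in PELP1-KD cells. Over all 12796 tested genes, the same threshold called 22.7% higher and 24.2% lower. With a log2FC beyond 1 as well, 2 of the 9 were higher and 1 was lower, against 1.90% and 1.34% of all tested genes. PELP1-KD replicates did not overlap the controls in 7 of the 9 genes, a pattern found in 55.0% of all tested genes. Since the same comparison chose the genes, nothing is read from these counts. Scaling by library totals in place of TMM turned the share of higher genes among all calls from 48.3% to 61.2%, while the number of these 10 genes called stayed at 6 higher and 1 lower.

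**Figure D1:**
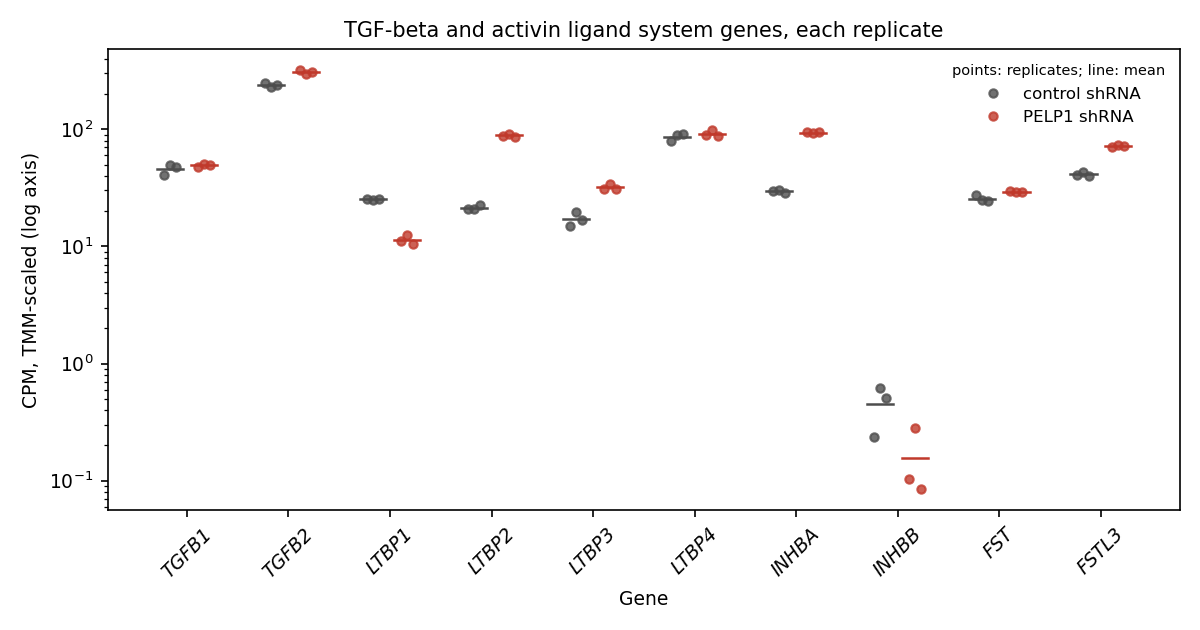
Expression of the 10 genes in each replicate. The vertical axis is CPM after TMM scaling on a log scale; each point is a replicate, each line a group mean (n = 3). INHBA and LTBP2 lay at about 30 and 21 CPM in control cells and near 90 CPM in PELP1-KD cells, LTBP1 was lower in PELP1-KD cells, and INHBB lay near the floor of detection.

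Stretches upstream of RefSeq starts of the genes that moved most are shown so that their start regions can be compared. The sequences were taken from RefSeq windows on GRCh38.p14, which end at the base before the annotated start, and were shortened where an annotated exon begins. LTBP2, with the largest rise, is given at chr14:74612379-74612487 on the minus strand. INHBA, with the second largest, is given at chr7:41703109-41703340 on the minus strand. This stretch is upstream of its RefSeq start but lies inside the GENCODE span of the gene (41667168 to 41705834). LTBP1, the gene that fell, is given at chr2:32946703-32946952 on the plus strand, the first of its 3 windows. Capitals mark the motifs searched, which are named after the sequences.
LTBP2: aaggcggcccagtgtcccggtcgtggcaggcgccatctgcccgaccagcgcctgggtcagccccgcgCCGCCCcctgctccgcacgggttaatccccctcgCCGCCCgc
INHBA: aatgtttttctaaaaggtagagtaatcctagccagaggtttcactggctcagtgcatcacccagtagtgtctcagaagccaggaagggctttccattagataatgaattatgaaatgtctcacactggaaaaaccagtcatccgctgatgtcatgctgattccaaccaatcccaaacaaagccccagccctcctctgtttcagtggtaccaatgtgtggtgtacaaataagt
LTBP1: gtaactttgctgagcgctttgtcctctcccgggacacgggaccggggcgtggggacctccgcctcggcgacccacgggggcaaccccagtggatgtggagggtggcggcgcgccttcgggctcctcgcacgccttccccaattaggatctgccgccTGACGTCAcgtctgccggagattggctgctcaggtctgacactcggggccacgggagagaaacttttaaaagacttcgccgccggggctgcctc

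Both strands of the full 250 bases upstream of each start were searched for 9 motifs. A gene was counted when any of its windows held the motif, and LTBP1, LTBP3 and LTBP4 have several windows. The shares of all windows count each window singly, so the 2 are not on the same footing. The cyclic AMP response element TGACGTCA was found upstream of LTBP1 alone among the 10 genes, 94 to 87 bases before the start, and in 1.65% of all 35116 windows. The shorter core TGACG, which overlaps it, occurred upstream of LTBP1 and TGFB2 and in 21.2% of all windows. GC boxes (GGGCGG) were found upstream of 7 of the 10 genes and in 42.6% of all windows, and TGFB2, LTBP1 and INHBA had none. LTBP2 had 3, of which the first 2 lie in the part shown above, written there as CCGCCC since they read on the other strand. The letters of a TATA box (TATAAA) stood upstream of INHBA, TGFB2 and FSTL3 and in 10.7% of all windows. They lie at bases -29 to -24 from the start in TGFB2 and in FSTL3, where they read on the other strand only. The match of INHBA is closer to the start, at bases -11 to -6. It lies in the part not printed, so the INHBA sequence above holds no capitals. The match of FSTL3 overlaps an SRF CArG box, which 1.16% of windows hold and no other of the 10 genes had. Both run past the base where an annotated exon of FSTL3 begins. The loose AP-1 pattern TGANTCA, in which N is any base, matched for FST alone (6.57% of windows). The match reads TGATTCA and lies past the base where an annotated exon begins. A MYC E-box (CACGTG) was found for TGFB2 alone (6.34%), and TEAD sites (GGAATG) for TGFB2 and LTBP4 (11.9%). The TEAD match of LTBP4 lies in a window whose first base already falls in an annotated exon. The SMAD palindrome GTCTAGAC, held by 0.182% of windows, was found for none of the 10. A match is a run of letters in a window and shows no binding. Base composition differed widely, with 42.8% G and C upstream of INHBA and 68.8% upstream of LTBP2, where the median of all windows was 58.0%.

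Among the TGF-beta ligands, TGFB2 was the more abundant transcript in both groups and was moderately higher in PELP1-KD cells, while TGFB1 was not called. TGFB2 lies on chromosome 1 (218346235 to 218444619, plus strand, GRCh38) and TGFB1 on chromosome 19 (41301587 to 41353911, minus strand). TGFB2 was at 247, 228 and 240 CPM in the controls and at 319, 299 and 310 CPM in PELP1-KD cells. Every PELP1-KD replicate lay above every control, and the log2FC was 0.38 (standard error 0.036). TGFB1 was at 40.4, 49.8 and 48.0 CPM in the controls and at 47.7, 50.5 and 49.1 CPM in PELP1-KD cells. The groups overlapped, since only control replicate 1 was low, and the log2FC was 0.09 (standard error 0.065). Without that replicate it was 0.003. Of the exonic bases of TGFB2, 26.6% are shared with TGFB2-OT1 on the same strand, which is not listed in the count tables, so reads there cannot be assigned to either transcript by strand. Of those of TGFB1, 6.64% are shared with HNRNPUL1 on the opposite strand, and whether the counting used strand is not given in the sources used here. Per length, TGFB2 made up 76.5% ± 2.63 (SD, n = 3) of the RPKM of both ligand genes in the controls and 79.8% ± 0.974 in PELP1-KD cells. The third TGF-beta gene, TGFB3, was low, with 23, 50 and 34 reads in the controls and 26, 52 and 42 in PELP1-KD cells, and had a log2FC of 0.0034 (edgeR quasi-likelihood test, adjusted p-value 0.992).

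The LTBP genes moved in opposite directions. The mean of LTBP2 was 4.13 times that of the controls and the mean of LTBP3 1.86 times, LTBP4 was not called, and the mean of LTBP1 fell by 55.2%. LTBP2 (chromosome 14, 74498170 to 74612378, minus strand) was at 20.7, 20.9 and 22.5 CPM in the controls and at 88.4, 90.4 and 86.6 CPM in PELP1-KD cells. The lowest PELP1-KD replicate was thus far above the highest control, and the log2FC of 2.05 (standard error 0.054) ranked 30th among the rises of all tested genes. LTBP3 (chromosome 11, 65538805 to 65558930, minus strand), which secures the latent complex of several TGF-beta isoforms, was at 14.9, 19.8 and 16.9 CPM in the controls. In PELP1-KD cells it was at 31.1, 34.1 and 30.8 CPM, and the log2FC was 0.88 (standard error 0.083). The controls of LTBP3 were more spread than those of LTBP2, with a coefficient of variation of 14.4% against 4.55%, but did not reach the PELP1-KD replicates.

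LTBP1 (chromosome 2, 32946972 to 33399509, plus strand), the prototype of the family, was at 25.5, 24.8 and 25.4 CPM in the controls and at 11.0, 12.5 and 10.4 CPM in PELP1-KD cells. Its groups did not overlap, and its log2FC of -1.16 (standard error 0.079) was the only one below 0 among the 9 tested genes. LTBP1 has several annotated starts, from which long and short forms of the protein arise, and counts per gene do not separate them. LTBP4 (chromosome 19, 40592883 to 40629818, plus strand) was at 79.0, 89.3 and 90.9 CPM in the controls and at 89.0, 98.4 and 87.9 CPM in PELP1-KD cells. The groups overlapped, and the log2FC was 0.08 (standard error 0.054). Without control replicate 1 it was 0.026, and without PELP1-KD replicate 2 it was 0.033.

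**Figure D2:**
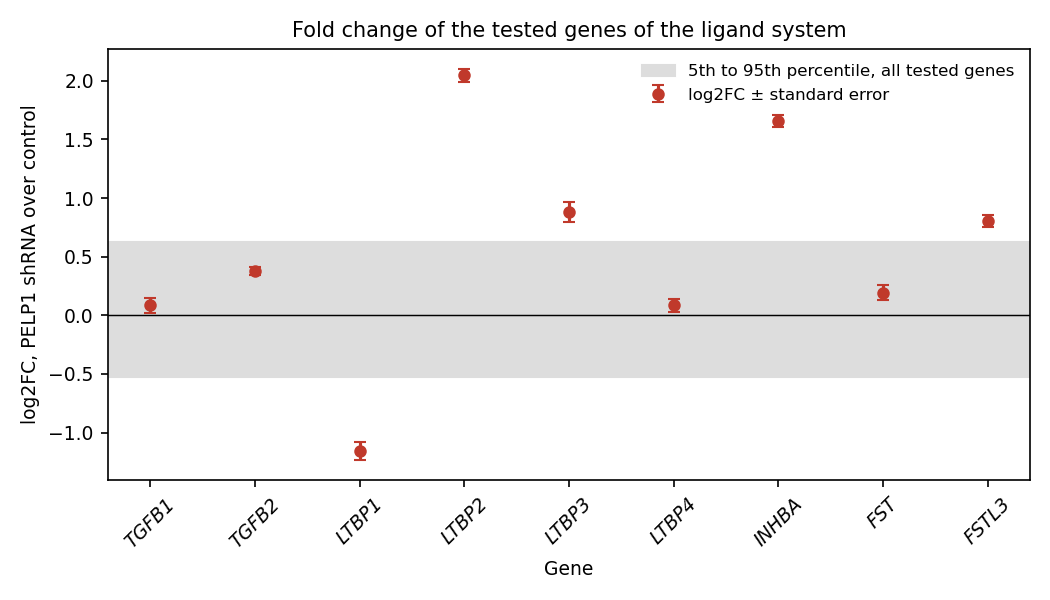
Fold changes of the 9 tested genes. The vertical axis is the log2FC of PELP1-KD over control cells, bars are standard errors, and the grey band spans the 5th to the 95th percentile of all 12796 tested genes, from -0.53 to 0.63. LTBP2, INHBA, LTBP3 and FSTL3 lie above the band, LTBP1 below it and the other 4 within it.

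The mixture of LTBP transcripts therefore differed between the groups. RPKM, the CPM divided by the length of all annotated exons in kilobases, was used to set the genes side by side. The 4 LTBP genes summed to 18.1 RPKM ± 1.02 (SD, n = 3) in the controls and 25.7 RPKM ± 1.23 in PELP1-KD cells. LTBP2 made up 13.5%, 12.4% and 13.2% of this sum in the controls and 38.5%, 36.7% and 38.4% in PELP1-KD cells. LTBP1 made up 20.5%, 18.2% and 18.4% in the controls and 5.96%, 6.28% and 5.75% in PELP1-KD cells. LTBP4 had the largest share in both groups, at 58.7% ± 1.13 and 44.0% ± 0.673, and LTBP3 went from 9.21% ± 0.988 to 12.1% ± 0.122. When the length of the longest transcript was used instead, the share of LTBP2 was 9.09% in the controls and 27.5% in PELP1-KD cells, and that of LTBP3 was 14.0% and 19.2%. With LTBP2 left out, LTBP1, LTBP3 and LTBP4 together stood at 0.261 ± 0.016 of the RPKM of TGFB1 and TGFB2 in the controls. In PELP1-KD cells the value was 0.213 ± 0.0176. The replicates of the groups did not overlap with the length of all annotated exons, but they did with that of the longest transcript. This is a ratio of summed transcripts, in which LTBP4 and TGFB2 weigh most, and does not show how much ligand is bound.

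**Figure D3:**
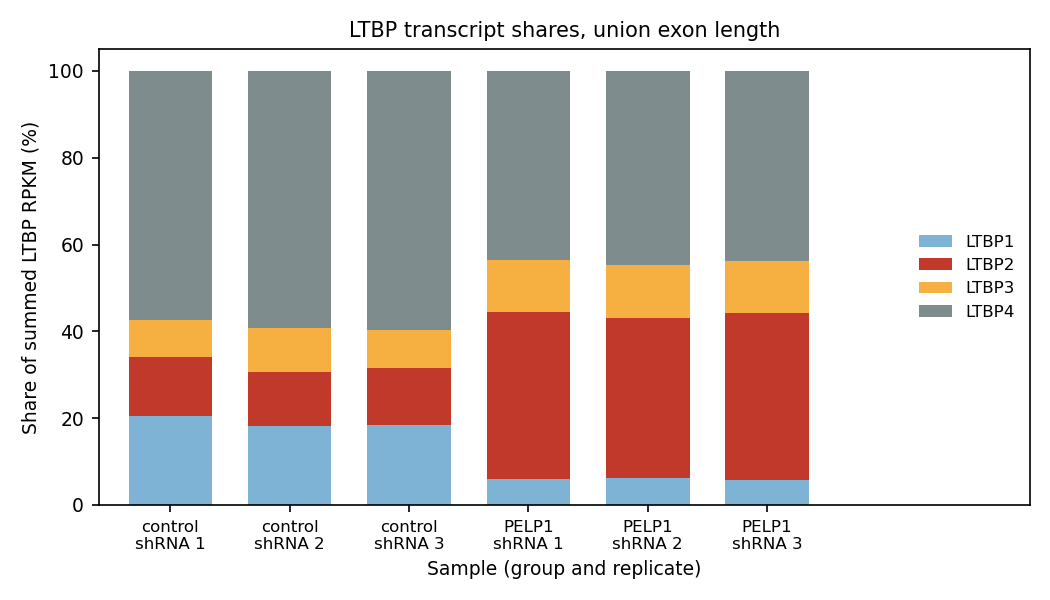
Share of each LTBP gene in the summed LTBP RPKM of each replicate, in percent, from union exon lengths. The 3 PELP1-KD bars hold a larger LTBP2 part (36.7% to 38.5%) than the 3 control bars (12.4% to 13.5%) and a smaller LTBP1 part.

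Of the activin subunits, INHBA was 3.16 times as abundant in PELP1-KD cells as in the controls and INHBB was barely detected. INHBA lies on chromosome 7 (41667168 to 41705834, minus strand) and INHBB on chromosome 2 (120346143 to 120351808, plus strand). INHBA was at 29.8, 30.6 and 28.5 CPM in the controls and at 95.2, 92.0 and 93.8 CPM in PELP1-KD cells. The replicates of each group lay close together and far from the other group, with a log2FC of 1.66 (standard error 0.05), which ranked 63rd among the rises of all tested genes. INHBB, the subunit of activin B, had 4, 14 and 9 reads in the controls and 2, 6 and 2 in PELP1-KD cells. It was not tested under the filter on low counts, the groups overlapped, and 2 of the PELP1-KD replicates were under the floor of 3 counts. INHA, whose product pairs with INHB subunits to form inhibins, had 0, 3 and 3 reads in the controls and 1, 1 and 0 in PELP1-KD cells.

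Both activin antagonists were higher in PELP1-KD cells, FSTL3 more than FST. FSTL3 (chromosome 19, 676365 to 683399, plus strand) was at 40.7, 42.9 and 40.0 CPM in the controls and at 71.0, 73.9 and 71.5 CPM in PELP1-KD cells. The groups did not overlap, and the log2FC was 0.81 (standard error 0.05). FST (chromosome 5, 53480409 to 53487134, plus strand) was at 27.5, 24.7 and 24.6 CPM in the controls and at 29.5, 28.96 and 29.1 CPM in PELP1-KD cells. Its groups were close but did not overlap, with a mean 13.9% higher and a log2FC of 0.19 (standard error 0.065). FST no longer passed the adjusted p-value when control replicate 2 or 3 or PELP1-KD replicate 3 was left out, with a log2FC of 0.16, 0.16 and 0.19. In RPKM, FSTL3 made up 60.9% ± 1.95 (SD, n = 3) of both antagonists in the controls and 70.5% ± 0.617 in PELP1-KD cells. The ratio of INHBA to the sum of FST and FSTL3 was 0.162 ± 0.00278 in the controls and 0.338 ± 0.00992 in PELP1-KD cells, and the groups did not overlap. In PELP1-KD cells INHBA lay above FST and below FSTL3 in RPKM, whereas in the controls it lay below both.

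By RPKM, the order of levels in the controls was TGFB2 at 46.3, TGFB1 at 14.2, FSTL3 at 13.4, LTBP4 at 10.7, FST at 8.63, INHBA at 3.57, LTBP1 at 3.44, LTBP2 at 2.35, LTBP3 at 1.67 and INHBB at 0.141. The replicates of TGFB1 overlapped those of FSTL3, and the replicates of INHBA overlapped those of LTBP1, so these neighbors were not separated. In PELP1-KD cells the order was TGFB2 at 60.1, FSTL3 at 23.5, TGFB1 at 15.2, LTBP4 at 11.3, INHBA at 11.3, FST at 9.83, LTBP2 at 9.73, LTBP3 at 3.11, LTBP1 at 1.54 and INHBB at 0.0488. LTBP4 and INHBA were not separated there, nor were FST and LTBP2. The places of LTBP3 and LTBP4 depend on the length used. LTBP3 has 21 annotated transcripts, and its level in the controls was 3.88 RPKM with the longest of them, above the 2.50 RPKM of LTBP2. LTBP4 with 39 annotated transcripts came to 17.2 RPKM in the same way, above TGFB1 at 16.6 and FSTL3 at 16.2.

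The genes whose profile over the 6 samples was closest to that of LTBP2, by the root mean square difference of mean-centered log2 CPM, were LCP1 (0.0693), ITGB3 (0.0947) and ZBED2 (0.11). LCP1 encodes an actin-bundling protein and ITGB3 an integrin beta subunit. Closest to LTBP1 were STC1 (0.0541), ELOVL1 (0.0569) and PDE7B (0.0708). Over 2 groups, this likeness reflects mainly a fold change of the same size.

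The other genes of the pathway were taken from 5 lists written from general knowledge and not picked by fold change, although earlier results of these samples were known. They hold 6 genes that stand in 2 lists and are counted in both. Of 14 other ligands of the class, 3 were tested. GDF15, a stress-responsive ligand, rose from 1.37 CPM ± 0.172 (SD, n = 3) to 4.18 CPM ± 0.677, a log2FC of 1.60 (edgeR quasi-likelihood test, adjusted p-value 6.51e-07). GDF11, a ligand close to myostatin, fell by 0.39 on the log2 scale (adjusted p-value 2.02e-04 from the same test), and TGFB3 was not called. The median of all tested genes, against which the lists are read, was a log2FC of 0.0014.

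Of 26 genes for the processing, matrix anchoring and activation of latent TGF-beta, 17 were tested, 7 were higher and 7 were lower, with a median log2FC of 0.14. ITGB3, a subunit of an integrin that can bind the latent complex, rose from 3.98 CPM ± 0.456 (SD, n = 3) to 15.3 CPM ± 0.633, a log2FC of 1.94 (edgeR quasi-likelihood test, adjusted p-value 8.61e-12). THBS1, which encodes an extracellular activator of latent TGF-beta, rose by a log2FC of 1.03 (adjusted p-value 1.05e-17). HTRA1, a secreted serine protease, fell from 8.36 CPM ± 1.17 to 2.04 CPM ± 0.148, a log2FC of -2.01 (adjusted p-value 7.88e-10), and FBLN1, a matrix glycoprotein, had a log2FC of -0.93 (adjusted p-value 7.52e-05). FURIN, a convertase that cuts the precursors, was among the 7 higher genes, with a log2FC of 0.49 (adjusted p-value 8.81e-10). PCSK6, the other furin-type convertase tested, was among the 7 lower genes, with a log2FC of -0.47 (adjusted p-value 0.0104 from the same test). Both were named after their values were seen.

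Of 16 other extracellular antagonists and binders, 5 were tested, 2 were higher and 2 were lower. FSTL5, a follistatin-like gene, had 8, 10 and 4 reads in the controls and 30, 42 and 43 in PELP1-KD cells, a log2FC of 2.20 (edgeR quasi-likelihood test, adjusted p-value 4.34e-06). NOG, which encodes the BMP antagonist noggin, fell from 71.6 CPM ± 8.28 (SD, n = 3) to 44.4 CPM ± 0.518, a log2FC of -0.69 (adjusted p-value 2.87e-08), and FSTL1 had a log2FC of -0.44 (adjusted p-value 1.31e-10). Of 22 receptors and SMADs, 20 were tested, 5 were higher and 8 were lower, with a median log2FC of -0.04. The changes were small and none went beyond a log2FC of 1. SMAD7, an inhibitory SMAD that TGF-beta itself induces, had a log2FC of 0.66 (adjusted p-value 4.5e-06), and SMAD6, another inhibitory SMAD, had 0.48 (adjusted p-value 0.0363). SMAD6 did not pass under DESeq2 or without control replicate 1 or 2 or PELP1-KD replicate 2 or 3, and its groups overlapped. SMURF2, a ubiquitin ligase of the pathway, had a log2FC of -0.57 (adjusted p-value 2.2e-11), and TGFBR2, the type II TGF-beta receptor, went from 216 CPM ± 8.16 to 166 CPM ± 6.43, a log2FC of -0.38 (adjusted p-value 7.37e-08).

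Of 34 genes known to be induced by TGF-beta or activin, 30 were tested, and 22 of them (73.3%) were higher and 2 (6.67%) were lower in PELP1-KD cells, with a median log2FC of 0.62, where 22.7% of all tested genes were higher and 24.2% were lower. COL1A1, a fibrillar collagen chain, rose from 5.84 CPM ± 1.08 (SD, n = 3) to 18.1 CPM ± 1.53, a log2FC of 1.61 (edgeR quasi-likelihood test, adjusted p-value 3.23e-10). TAGLN, an actin-binding protein of contractile cells, rose from 42.3 CPM ± 0.755 to 124 CPM ± 4.23, a log2FC of 1.55 (adjusted p-value 5.61e-16). IL11, a cytokine, rose from 116 CPM ± 7.14 to 264 CPM ± 3.72, a log2FC of 1.18 (adjusted p-value 4.41e-15). TGFBI, COL4A1 and THBS1 also went beyond a log2FC of 1, at 1.15, 1.08 and 1.03. TIMP3, an inhibitor of matrix proteases, fell from 44.4 CPM ± 1.37 to 15.3 CPM ± 0.254, a log2FC of -1.53 (adjusted p-value 7.77e-14), and KLF10, an early response gene of TGF-beta, had a log2FC of -0.30 (adjusted p-value 9.45e-05). Many of these genes also respond to other signals, and the list as a whole was not tested.

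**Figure D4:**
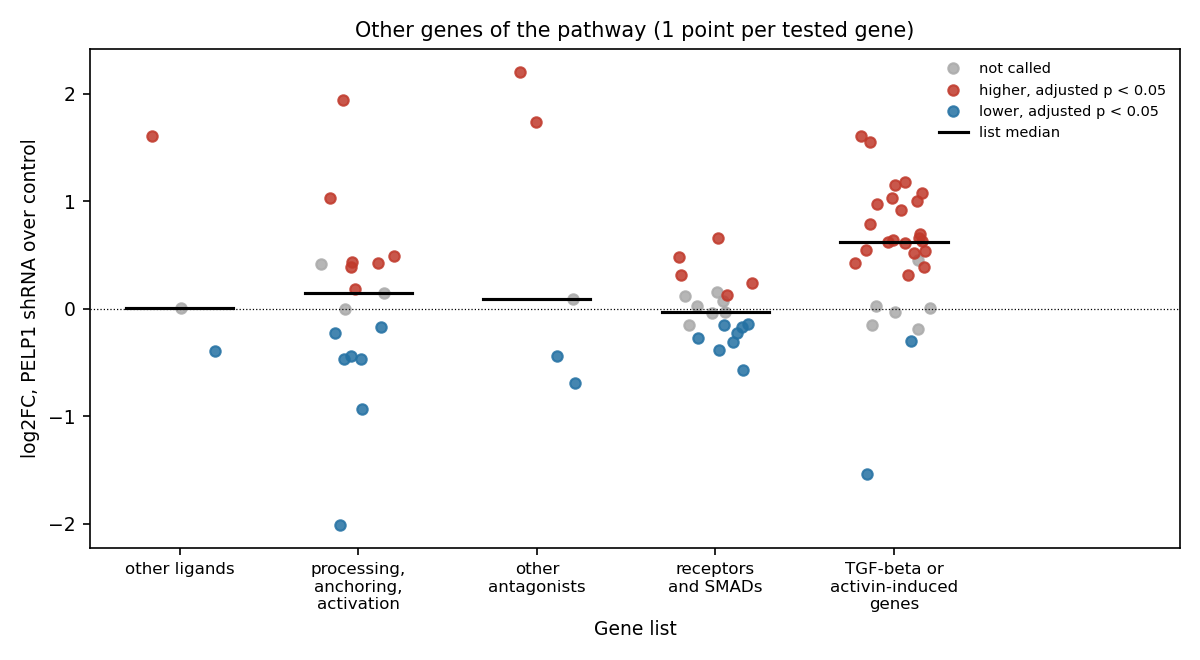
Fold changes of the other tested genes of the pathway. Each point is a gene, the vertical axis is the log2FC of PELP1-KD over control cells, color marks calls at an adjusted p-value below 0.05, and the line is the list median. The genes known to be induced by TGF-beta or activin lie mostly above 0, with 22 of 30 called higher, while receptors and SMADs spread around 0.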

How the data were processed

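RNA-seq was done on 3 control and 3 PELP1-KD replicates of MDA-MB-231 cells, from stranded poly(A) libraries with single reads of 50 bases. The authors deposited raw read counts per gene symbol for each replicate. The submitters' processing notes name bcl2fastq, TopHat2, SAMtools and HTSeq, without versions, and the build hg19. The annotation and the strand setting of the counting are not given in the sources used here. Reads with more than a single alignment (32.5% to 32.9%) were counted on no gene, and 41.0% to 41.4% of all reads lie in the closing rows that name no gene, which stayed out of library sizes and tests.

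Genes passing filterByExpr (minimum count 10) in edgeR 4.0.16 (R 4.3.3) were scaled by TMM and tested by the quasi-likelihood test with Benjamini-Hochberg adjustment over all genes tested. Standard errors were obtained as the absolute log2FC over the square root of F. Genes were called at an adjusted p-value below 0.05. CPM uses TMM-scaled totals, and log2 CPM a prior count of 2. RPKM uses union exon lengths from GENCODE release 29 (GRCh38), so gene coordinates come from that annotation and not from the counts' own build. Promoter windows are from RefSeq (GRCh38.p14) and were found for all 10 genes. Floors cover counting error only, because no molecular identifiers tell copies of a molecule apart. The biological coefficient of variation was 3.52%. Only the main edgeR fit was tried on simulated counts, and not the alternatives, the motif search or the RPKM shares.

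The genes and lists were chosen with earlier results of these data known. By the rule for named genes, the 10 genes, PELP1, TGFB3 and INHA were named, as were the 2 largest called rises and falls of each of 5 lists, every called induced gene with a log2FC beyond 1, and the 3 genes closest in profile to the largest rise and the largest fall. Some genes of the lists that the rule names are not reported here. Alternatives were RLE size factors, DESeq2 1.42.0, no filter, at least 10 counts per replicate, library totals, the replicate number as a block, each replicate left out in turn, and the length of the longest transcript for RPKM.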

Additional observations from a re-analysis of the deposited data

How the results depend on the processing

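Of 108 log2FC values of the 9 tested genes under the alternatives, 105 kept their direction and their side of the threshold, and none changed sign. The 3 exceptions were those of FST with a replicate left out, where its log2FC lay between 0.16 and 0.24. Of 323 values of the 27 other named genes, 316 kept both, 5 of SMAD6 lost the threshold, and TGFB3 changed sign without control replicate 1 (-0.15) and without PELP1-KD replicate 2 (-0.23), in a range from -0.23 to 0.18. When single replicates were left out, 5 to 6 of the 10 genes were called higher and 1 to 2 lower, and 3 to 6 receptors and SMADs were higher. Without a filter on low counts, 2 genes were called lower, INHBB being the second, as it was without control replicate 1. DESeq2 called 3 receptors and SMADs higher. With at least 10 counts in every replicate, 134 genes were higher and 106 lower with a log2FC beyond 1, against 243 and 171, and 1 other antagonist was called higher in place of 2; fewer genes were tested there (12237). With the replicate number as a block, 6 of the 10 genes were called higher and 1 lower, as without it, and the log2FC of LTBP2, INHBA and LTBP1 was 2.05, 1.66 and -1.16. Deviations of same-numbered replicates correlated at 0.0388, 0.0653 and -0.0784, which shows no pairing by number but cannot exclude it. Over all tested genes, the block called 3140 higher and 3335 lower, against 2904 and 3103 without it. The standard error of LTBP3 was 0.07 with the block and 0.083 without it. The other calls of the members did not change with the block. Counts near the floor limit what can be said of INHBB and INHA, and low counts above it (23 to 52 reads) limit what can be said of TGFB3.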
